A study of Rattus norvegicus with 8 samples.

Results

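The 8 genes described here were chosen as ones that glucocorticoids induce or that act as brakes downstream of them. Their expression was followed in the habenula of restrained rats, where 7 were higher than in non-stress rats and Map3k6 was lower. They were taken as the probe sets whose single gene symbol is Zbtb16, Bcl6, Klf9, Hif3a, Fkbp5, Tsc22d3, Cdkn1a or Map3k6, and each of the 8 had 1 probe set among the 379 of the deposited table, 283 of which carry a single symbol. Stressed animals were 4 male Sprague-Dawley rats, each confined to a plastic film envelope for 2 hours daily on 14 days, and non-stress animals were 4 male rats of the same strain that stayed in their home cages. Total RNA of each habenula was hybridised to 1 Affymetrix whole-transcript array, so that every value below is 1 rat. The sources used here do not state age, the time between the last restraint and dissection, or blood corticosterone.

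Corticosterone, the main glucocorticoid of the rat, enters cells and binds the glucocorticoid receptor, which moves to the nucleus and binds DNA at paired short half-sites called glucocorticoid response elements. Among the genes it switches on are some that restrain the same response: Fkbp5 encodes a co-chaperone that lowers the receptor's affinity for hormone, and Tsc22d3 encodes the leucine zipper protein GILZ, which binds and restrains inflammatory transcription factors. Others are transcription factors that carry the signal on to further genes, or brakes on cell growth such as Cdkn1a, an inhibitor of cyclin-dependent kinases. The habenula is a small paired nucleus above the thalamus that relays signals from the forebrain to the monoamine centres of the midbrain, and it has been studied for its part in aversion and stress.

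All 379 probe sets (100%), the 8 genes included, had an unequal-variance p-value under 0.05 between these same 8 arrays and a log2 difference of at least 0.26, so the table is itself a selection on the comparison of stress with non-stress. The 8 genes were in turn picked from it with that comparison known. Their differences are therefore descriptions and carry no test. A gene counted as not in the table may have missed 1 of the rules or not been measured. It may also lie on a probe set without a single symbol, since only single-symbol probe sets were searched. In the authors' deposited table the p-values of the 8 genes ran from 5.39e-05 for Cdkn1a to 0.0492 for Map3k6, which also had the smallest fold and so lay nearest to both limits; probe sets beyond the limits were not analysed here. Array medians over the table lay between 8.60 and 8.77. Values are log2 expression values, and means are given with SD and n = 4 rats a group. Differences are stress minus non-stress, with the standard error from limma's fit to all 379 probe sets. All 379 were kept for a large difference and a small p-value in these same arrays. Their differences thus tend to be too large and their standard errors too small.

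The promoters were read for the receptor's binding letters, because these genes were chosen as its targets or as brakes downstream of it. RefSeq promoters of the rat (GRCr8, 250 bases before to 50 after each start) were listed for 7 of the 8 genes, 10 promoters in all, and Zbtb16 had none in the list. The half-site TGTTCT, searched on both strands, was in 0 of the 10, against 20.7% of all 33469 promoters. The full palindromic element, in which that half-site follows its own reverse complement after 3 free bases, was therefore in 0 as well, and 0.0149% of all promoters hold it. The core ACANNNTGT, which forms the middle of the full element and reads the same on both strands, was in 2 of the 10, against 6.86% of all promoters. One was the second of 3 promoters of Tsc22d3, with the core 183 bases before the start, and the other was that of Map3k6, with the core 179 bases before the start. Both are shown with that of Fkbp5, in which none of the letters occur. The core is in capitals, the rest in lower case.
Tsc22d3, chrX:109065381-109065680, minus strand: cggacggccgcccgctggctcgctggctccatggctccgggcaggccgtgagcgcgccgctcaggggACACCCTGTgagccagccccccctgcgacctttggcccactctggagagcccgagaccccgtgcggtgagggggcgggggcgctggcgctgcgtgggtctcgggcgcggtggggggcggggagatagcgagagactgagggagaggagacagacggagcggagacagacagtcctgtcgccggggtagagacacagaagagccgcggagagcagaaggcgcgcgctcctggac
Map3k6, chr5:150723995-150724294, plus strand: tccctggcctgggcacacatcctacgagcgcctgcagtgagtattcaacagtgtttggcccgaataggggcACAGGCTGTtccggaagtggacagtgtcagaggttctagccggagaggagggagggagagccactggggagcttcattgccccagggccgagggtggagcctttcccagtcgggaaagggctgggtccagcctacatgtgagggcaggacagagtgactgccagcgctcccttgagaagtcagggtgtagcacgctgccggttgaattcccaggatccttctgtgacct
Fkbp5, chr20:6543506-6543805, minus strand: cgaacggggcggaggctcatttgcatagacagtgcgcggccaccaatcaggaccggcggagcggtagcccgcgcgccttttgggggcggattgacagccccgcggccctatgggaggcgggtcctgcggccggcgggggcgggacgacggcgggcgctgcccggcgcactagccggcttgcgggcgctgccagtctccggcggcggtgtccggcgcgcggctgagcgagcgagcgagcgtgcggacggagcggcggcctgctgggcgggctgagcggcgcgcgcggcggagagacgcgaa
The Fkbp5 window is 77.0% G and C and the other windows run from 50.7% to 73.0%, where the median promoter has 51.7%. The shares over all promoters were not matched for this content. A match is no evidence of binding, and its absence says only that these letters are not in these windows. The core stood in the promoter of the 1 gene that was lower in stressed rats as well as in that of a gene that was higher.

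Of the 8 genes 7 were higher in stressed rats, where 44.6% of the probe sets of the table were higher, and 1, Map3k6, was lower, as were 55.4% of the table. In all 8 the 4 stressed rats did not overlap the 4 non-stress rats, as was so for 83.4% of the table. The difference exceeded 1.5-fold in 5 of the 8 and in 8.18% of the table. That count is close to the limit: Fkbp5 and Cdkn1a, with log2 differences of 0.60 and 0.59, dropped below it without stressed rat 7 or without stressed rat 12, which left 3 genes, and Cdkn1a alone did so without non-stress rat 3, which left 4. The median size of the difference was 0.60 over the 8 genes and 0.33 over the table. Habenula tissue holds many cell types, so less RNA per cell and fewer cells of a type cannot be told apart in any of these values.

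**Figure D1:**
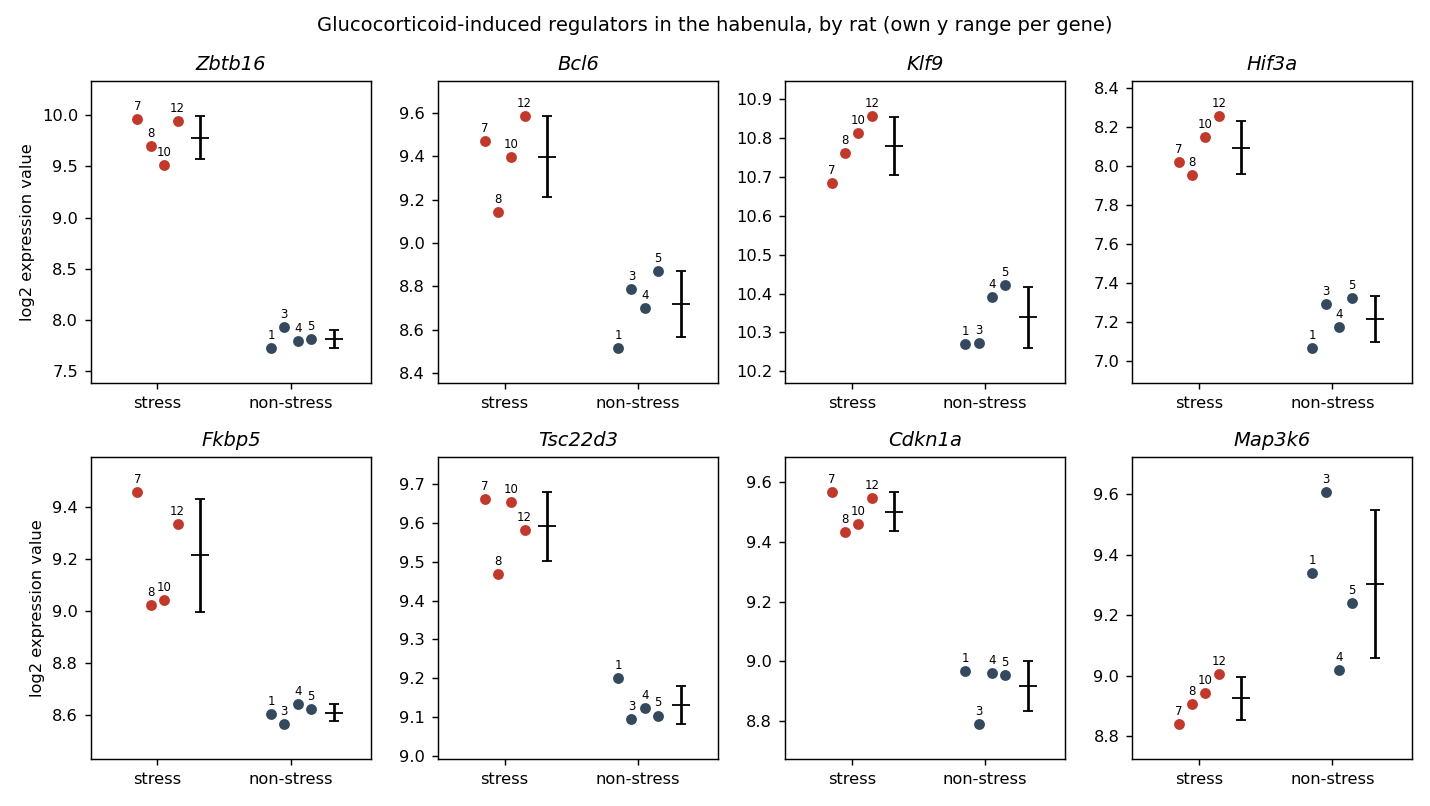
Log2 expression values of the 8 genes (y axis, a range of its own per gene) in 4 stressed and 4 non-stress rats (x axis); numbers are rat numbers, the bar beside each group is its mean and SD. Stressed rats lie above non-stress rats in 7 genes and below them in Map3k6, where 0.01 separates the groups.

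Among the transcription factors, Zbtb16 encodes a repressor with a BTB domain and zinc fingers that glucocorticoids induce in many tissues. It stood at 9.96, 9.70, 9.52 and 9.94 in stressed rats 7, 8, 10 and 12, against 7.72, 7.93, 7.79 and 7.81 in non-stress rats 1, 3, 4 and 5. Even the lowest stressed rat was 1.59 above the highest non-stress rat on the log2 scale, the widest gap of the 8 genes. The means were 9.78 ± 0.21 and 7.81 ± 0.09, a difference of 1.97 ± 0.10, and single stressed rats were 3.25-fold to 4.44-fold above the non-stress mean. It had the largest difference of the 169 higher probe sets.

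Bcl6 encodes another repressor of the BTB and zinc finger family, best known from B cells. Its levels were 9.47, 9.14, 9.40 and 9.58 in stressed rats 7, 8, 10 and 12 and 8.51, 8.79, 8.70 and 8.87 in non-stress rats 1, 3, 4 and 5. Stressed rat 8 was the low one, yet 1.21-fold above the highest non-stress rat. The difference of means was 0.68 ± 0.10 with all rats (9.40 ± 0.19 and 8.72 ± 0.15) and 0.77 without stressed rat 8. It was 13th in size among the higher probe sets.

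Hif3a encodes a hypoxia-inducible factor subunit, some forms of which oppose the other subunits. Stressed rats 7, 8, 10 and 12 had 8.02, 7.95, 8.15 and 8.26, while non-stress rats 1, 3, 4 and 5 had 7.06, 7.29, 7.18 and 7.32. The groups lay well apart, with the lowest stressed rat 1.55-fold above the highest non-stress rat. The difference was 0.88 ± 0.09, or 1.84-fold, the 5th largest of the higher probe sets. Of 12 genes induced by hypoxia, listed for comparison, the glucose transporter Slc2a1 was the only one in the table; it was higher by 0.27 ± 0.08 and is also held by the list of glucocorticoid-responsive genes.

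Klf9, a Krüppel-like factor that represses or activates genes through GC-rich sites, differed least of the 7 higher genes. It was at 10.68, 10.76, 10.81 and 10.86 in stressed rats 7, 8, 10 and 12, against 10.27, 10.27, 10.39 and 10.42 in non-stress rats 1, 3, 4 and 5. Both groups were tight, with SDs of 0.07 and 0.08, and the difference was 0.44 ± 0.08, or 1.36-fold. After quantile normalization of the 8 arrays it was 0.58, where that scaling moved the median difference of the whole table by 0.10. Of the relatives of the 8 genes that had been listed, 33 in all, the 3 in the table were Krüppel-like factors too. Klf15 was higher by 0.33 ± 0.08, Klf2 by 0.29 ± 0.08 and Klf4 by 0.26 ± 0.09; the groups did not overlap in Klf15 and Klf2 and did in Klf4.

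**Figure D2:**
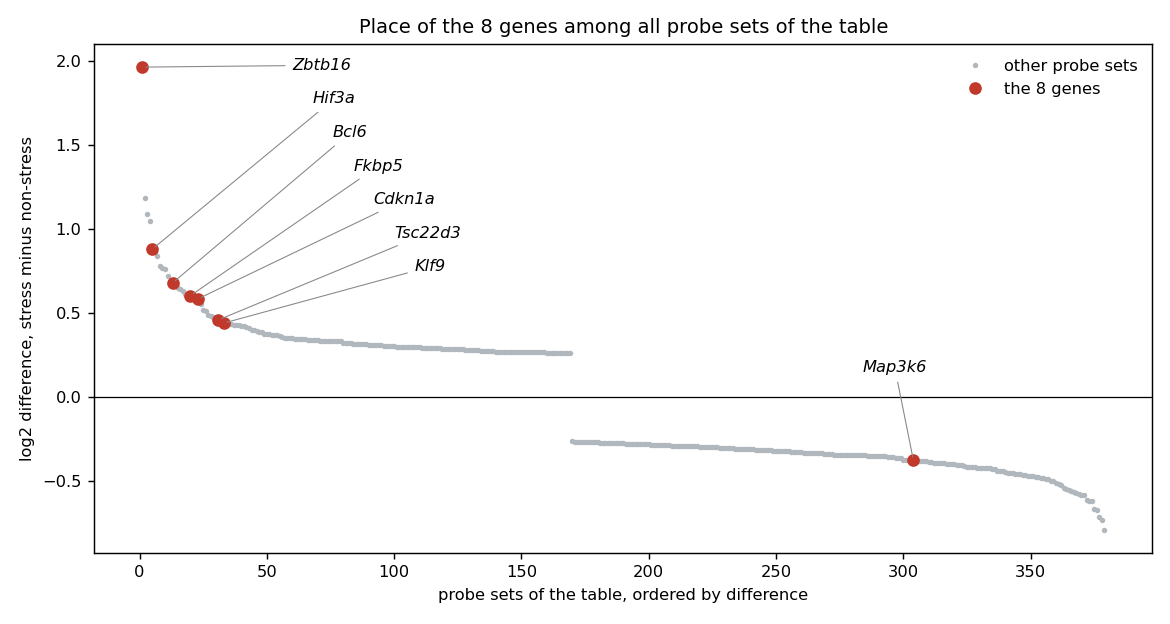
Log2 difference, stress minus non-stress (y axis), of all 379 probe sets in order of size (x axis), with the 8 genes marked. The empty band around 0 is the fold rule of the table; Zbtb16 at 1.97 stands apart from the next genes, and Map3k6 lies among the middle of the lower probe sets.

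Of the feedback genes, Fkbp5 was even among non-stress rats and spread among stressed rats. Stressed rats 7, 8, 10 and 12 had 9.46, 9.02, 9.04 and 9.34, and non-stress rats 1, 3, 4 and 5 had 8.61, 8.57, 8.64 and 8.62. Rats 7 and 12 formed a higher pair and rats 8 and 10 a lower pair, and all 4 were above the non-stress rats. The SD was 0.22 in stressed and 0.03 in non-stress rats, a ratio of 6.51. The difference of means was 0.60 ± 0.10, while single stressed rats were 1.33-fold to 1.80-fold above the non-stress mean.

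Tsc22d3 was at 9.66, 9.47, 9.65 and 9.58 in stressed rats 7, 8, 10 and 12, against 9.20, 9.09, 9.12 and 9.10 in non-stress rats 1, 3, 4 and 5. Stressed rat 8 was again the low one of its group. The difference was 0.46 ± 0.08, or 1.38-fold, 31st among the higher probe sets. The gene has several start sites, and 1 probe set does not tell its transcripts apart. None of 19 genes of the glucocorticoid receptor itself, its chaperones, co-regulators and hormone handling (0 of 19) was in the table.

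Of the growth-arrest and stress-kinase genes, Cdkn1a was at 9.57, 9.43, 9.46 and 9.55 in stressed rats 7, 8, 10 and 12 and at 8.97, 8.79, 8.96 and 8.95 in non-stress rats 1, 3, 4 and 5. Non-stress rat 3 lay below the other 3, and the stressed rats were close together (SD 0.07). The difference was 0.59 ± 0.08, 23rd among the higher probe sets. Cdkn1a is also a target of p53, the tumour suppressor; of 14 other p53 targets listed, the kinase Plk2 was the only one in the table, and it was lower, at -0.31 ± 0.08. Fkbp5 and Cdkn1a both lie on chromosome 20, with 15 protein-coding genes between them in the RefSeq table. Of these, 0 were among the deposited single-symbol probe sets.

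Map3k6, a kinase at the top of stress-activated kinase cascades, went the other way. It was at 8.84, 8.91, 8.94 and 9.01 in stressed rats 7, 8, 10 and 12, against 9.34, 9.61, 9.02 and 9.24 in non-stress rats 1, 3, 4 and 5. The stressed rats were alike (SD 0.07) and the non-stress rats were not (SD 0.24), and stressed rat 12 came within 0.01 of non-stress rat 4. The difference was -0.38 ± 0.10, or -0.27 without non-stress rat 3, and ranked 76th in size among the 210 lower probe sets.

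The 7 higher genes did not all follow the same rats. Stressed rat 8 was the lowest of its group in 5 of them, namely Bcl6, Hif3a, Fkbp5, Tsc22d3 and Cdkn1a, where it was the lowest in 44.4% of all higher probe sets. Stressed rat 7 was the highest in Zbtb16, Fkbp5, Tsc22d3 and Cdkn1a but the lowest in Klf9, and stressed rat 12 was the highest in Bcl6, Hif3a and Klf9. Of all higher probe sets, rat 7 was the highest in 19.5% and the lowest in 27.8%, and rat 12 the highest in 39.1%. Averaged over the 7 genes, stressed rats 7, 8, 10 and 12 were above the non-stress mean by 0.87, 0.68, 0.76 and 0.91 on the log2 scale. Without stressed rat 8 the median difference of the 7 genes was 0.67, against 0.60 with it. It could not fall, since stressed rat 8 was below its group mean in all 7.

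**Figure D3:**
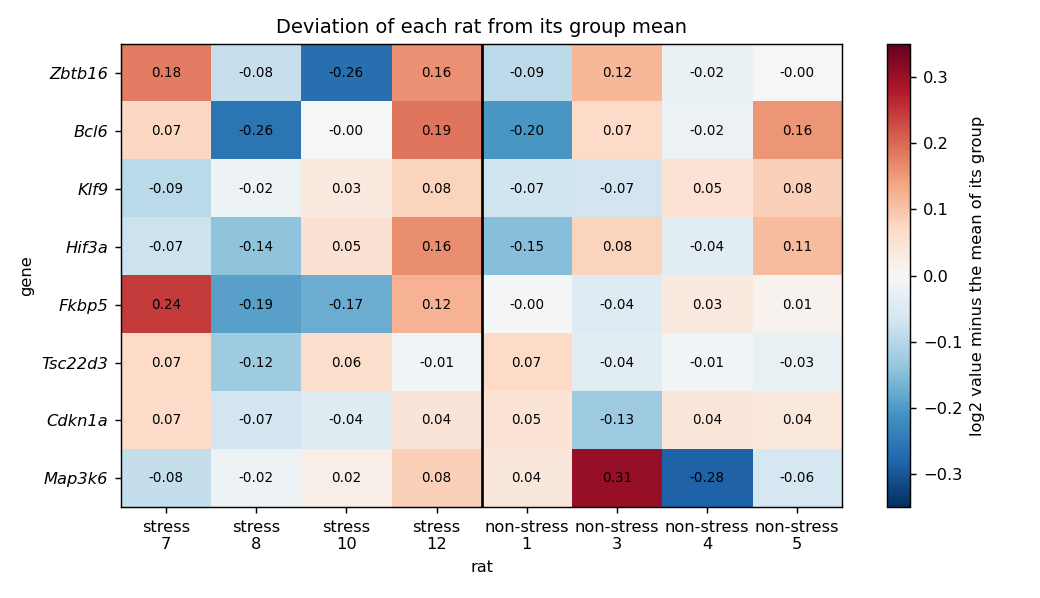
Log2 value of each gene (rows) in each rat (columns) minus the mean of that rat's own group, red above and blue below. Stressed rats 7 and 12 are red in Zbtb16, Fkbp5 and Cdkn1a and stressed rat 8 is blue in all 8 rows, while the widest spread, 0.31 and -0.28, is that of Map3k6 in non-stress rats 3 and 4.

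Covariation from rat to rat, which the choice of the genes did not use, was tested on the deviations from the group means for all 28 pairs of the 8 genes, with rats permuted within groups (576 orders, two-sided). After Benjamini-Hochberg adjustment over the 28 pairs 0 passed 0.05 by Pearson's r and 0 by Spearman's rho, while 2 and 1 pairs were under 0.05 unadjusted. The smallest exact permutation p that 576 orders allow is 0.00174, and 1 pair alone passes the adjustment only at that floor. The test had little power to call a pair, so its result is no evidence that covariation is absent. Bcl6 and Hif3a had r = 0.877 (exact permutation p = 0.0104, adjusted p = 0.146) and rho = 0.833 (exact permutation p = 0.0260, adjusted p = 0.632). Without stressed rat 8 and non-stress rat 1, the rats farthest from the median of Bcl6, r was 0.698 (exact permutation p = 0.167), so the size of the relation rests partly on them. Fkbp5 and Cdkn1a had r = 0.701 (exact permutation p = 0.00694, adjusted p = 0.146) and rho = 0.786 (exact permutation p = 0.0694, adjusted p = 0.632), and r = 0.587 (exact permutation p = 0.0833) without stressed rats 7 and 8. This pair passed when each array was first centred on its median (r = 0.669). Its adjusted exact permutation p was then 0.0486, the lowest that 1 pair alone can have, so the call turns on the scaling.

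In both Zbtb16 and Fkbp5, stressed rats 7 and 12 were above stressed rats 8 and 10. Over the deviations of all 8 rats r was 0.796 (exact permutation p = 0.240, adjusted p = 0.843) and rho 0.738 (exact permutation p = 0.229, adjusted p = 0.879), and r was 0.624 (exact permutation p = 0.875) without stressed rats 7 and 10. With each deviation divided by the SD of its own group, so that both groups weigh alike, r was 0.129 (exact permutation p = 0.776, adjusted p = 0.871). The unscaled r thus came mainly from the stressed rats, whose spread was wider. The non-stress rats did not share the order: non-stress rat 3 was the highest of them in Zbtb16 (7.93) and the lowest in Fkbp5 (8.57). Among the 21 pairs of the 7 higher genes, r was above 0 in 15 and its median was 0.22. Over all 14196 pairs of higher probe sets the median was 0.21 and 67.9% were above 0, which is near the values of the 7 genes.

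**Figure D4:**
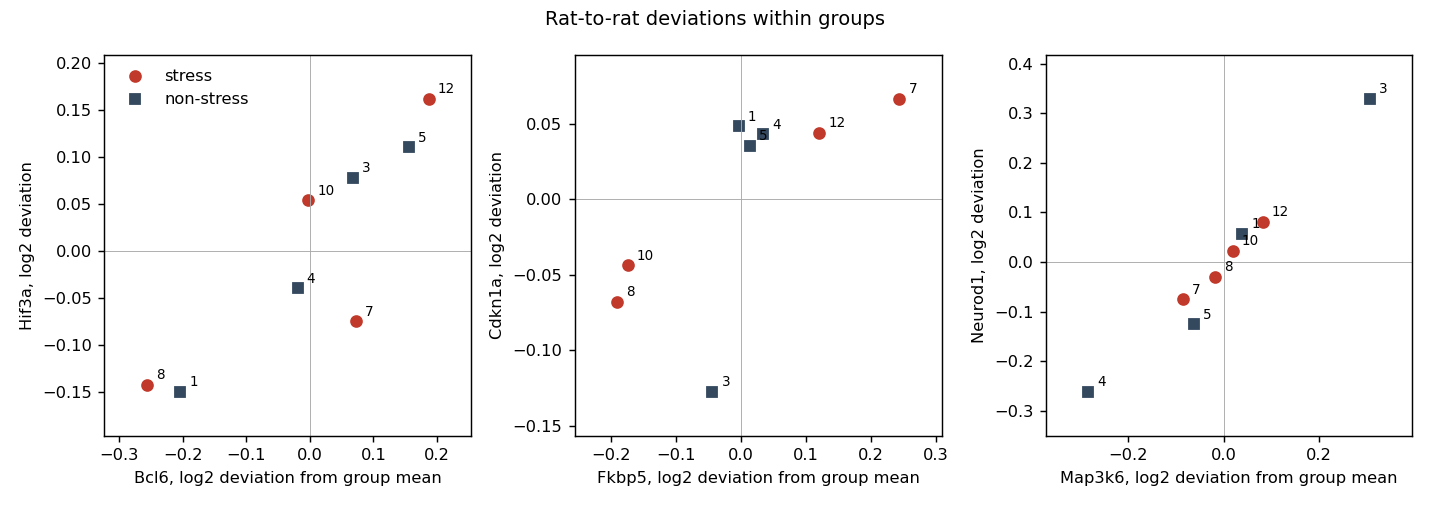
Deviation of each rat from its group mean on the log2 scale for Bcl6 (x) and Hif3a (y), Fkbp5 and Cdkn1a, and Map3k6 and Neurod1; circles are stressed and squares non-stress rats, numbered. In the third panel non-stress rats 3 and 4 mark the ends of the line and the stressed rats lie between them.

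For each gene the 2 most alike of the 275 other single-symbol probe sets were found by Pearson's r of these deviations over the 8 rats. Being the highest of 275 values they carry no test. Bcl6 was nearest to Klf15 (r = 0.973) and to the period gene Per1 (r = 0.959), and Klf15 was also second nearest to Hif3a (r = 0.915), after the olfactory receptor Or5d40 (r = 0.964). Zbtb16 and Fkbp5 shared the secreted phospholipase gene Pla2g3 (r = 0.83 and 0.96), which was higher in stressed rats by 0.78 ± 0.09; the nearest to Zbtb16 was Eva1a (r = 0.934). Fkbp5 and Cdkn1a shared Srxn1, the sulfiredoxin that repairs oxidised peroxiredoxins (r = 0.838 and 0.833), and Cdkn1a was nearest to the protocadherin Pcdh20 (r = 0.945). Tsc22d3 was nearest to Nfkbia, the inhibitor of NF-kappa-B (r = 0.837), and to Gadd45g (r = 0.809). Klf9 was nearest to Cd209a (r = 0.954) and Spata2L (r = 0.931). Or5d40 and Cd209a were dim, with means of 6.15 and 5.61 in stressed rats and 5.80 and 5.34 in non-stress rats. The array medians were 8.60 to 8.77.

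Map3k6 was nearest to genes that were lower in stressed rats as it was: the neuronal transcription factor Neurod1 (r = 0.987; difference -0.48 ± 0.11) and Gfra1, a receptor subunit for the growth factor GDNF (r = 0.982; difference -0.40 ± 0.09). Non-stress rat 3 was the highest and non-stress rat 4 the lowest of the non-stress rats in Map3k6. Of 12 medial habenula markers listed, 8 were in the table, all lower in stressed rats, where 55.4% of the table was lower. Non-stress rat 3 was the highest in 7 of the 8 and non-stress rat 4 the lowest in 6. Over all lower probe sets these shares were 62.9% and 51.4%. The summed signal of the 8 markers, on the linear scale, was 12555 to 13484 in stressed rats and 15174 to 21120 in non-stress rats. Of 6 genes listed as hippocampal and dentate markers, 3 were in the table, Neurod1, Slc17a7 and Nrgn, and all were lower as well. Their sum was 4384 to 4655 in stressed rats and 5134 to 6822 in non-stress rats. Both sums hold only markers that entered the table by differing between these arrays, so their separation is no independent result. Non-stress rat 3 was the highest and non-stress rat 4 the lowest in all 3, the same ends as in most habenula markers. Whether these 3 genes mark hippocampal tissue here was not tested. The part of these markers in the value of Map3k6 was not tested.

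Other glucocorticoid-responsive genes in the table were higher as well. Of 38 symbols listed as other responsive genes, some of them second names of a gene, 15 were in the table and all 15 were higher in stressed rats, where 44.6% of the table was; the list was drawn up with earlier results of these arrays known and is no independent evidence of direction. Their median difference was 0.51, against 0.32 over all higher probe sets, and 14 of the 15 had groups that did not overlap, the exception being Dusp1. Sgk1, a kinase that regulates ion transport, was at 12.13, 11.37, 12.20 and 12.20 in stressed rats 7, 8, 10 and 12 and at 10.63, 10.98, 10.77 and 11.17 in non-stress rats 1, 3, 4 and 5. Ddit4, an inhibitor of the growth kinase complex mTORC1 and so another brake on growth, was higher by 0.65 ± 0.11, and Errfi1, an inhibitor of the epidermal growth factor receptor, by 0.51 ± 0.11. Gadd45g (0.43 ± 0.10) and Gadd45b (0.27 ± 0.08), growth-arrest genes like Cdkn1a, were also higher. Mertk, a receptor kinase for the clearance of dead cells, was higher by 0.48 ± 0.09 and Arrdc2, an arrestin-like gene, by 0.44 ± 0.09.

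Stressed rat 8 was the lowest stressed rat in 12 of these 15 genes, as in 5 of the 7. Zbtb16 and Klf9 were not among the genes in which it was lowest: in Zbtb16 it lay at 9.70, above stressed rat 10, and in Klf9 at 10.76, above stressed rat 7. Without stressed rat 8 the median difference of the 15 genes was 0.63 and all 15 were still higher. Leaving out the rat that was lowest in 12 of the 15 was bound to raise most differences and could turn none negative. Of 6 endothelial markers 3 were in the table: Apold1 was higher by 0.87 ± 0.14, with stressed rat 8 the lowest stressed rat, while the transporters Slco1a4 and Slco1c1 were lower (-0.32 ± 0.08 and -0.29 ± 0.08). Of 6 microglial markers Tmem119 was higher and Gpr34 lower (0.37 ± 0.10 and -0.58 ± 0.09), and 0 of 6 oligodendrocyte, 0 of 6 astrocyte and 0 of 4 choroid plexus markers were in the table. The summed linear signal of the 3 endothelial markers was 2174 to 2450 in stressed rats and 2601 to 2766 in non-stress rats, and that of the 2 microglial markers 1117 to 1274 and 1043 to 1228. These sums, too, hold only markers that entered the table by differing between these arrays. The part of these markers in the differences was not tested.

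**Figure D5:**
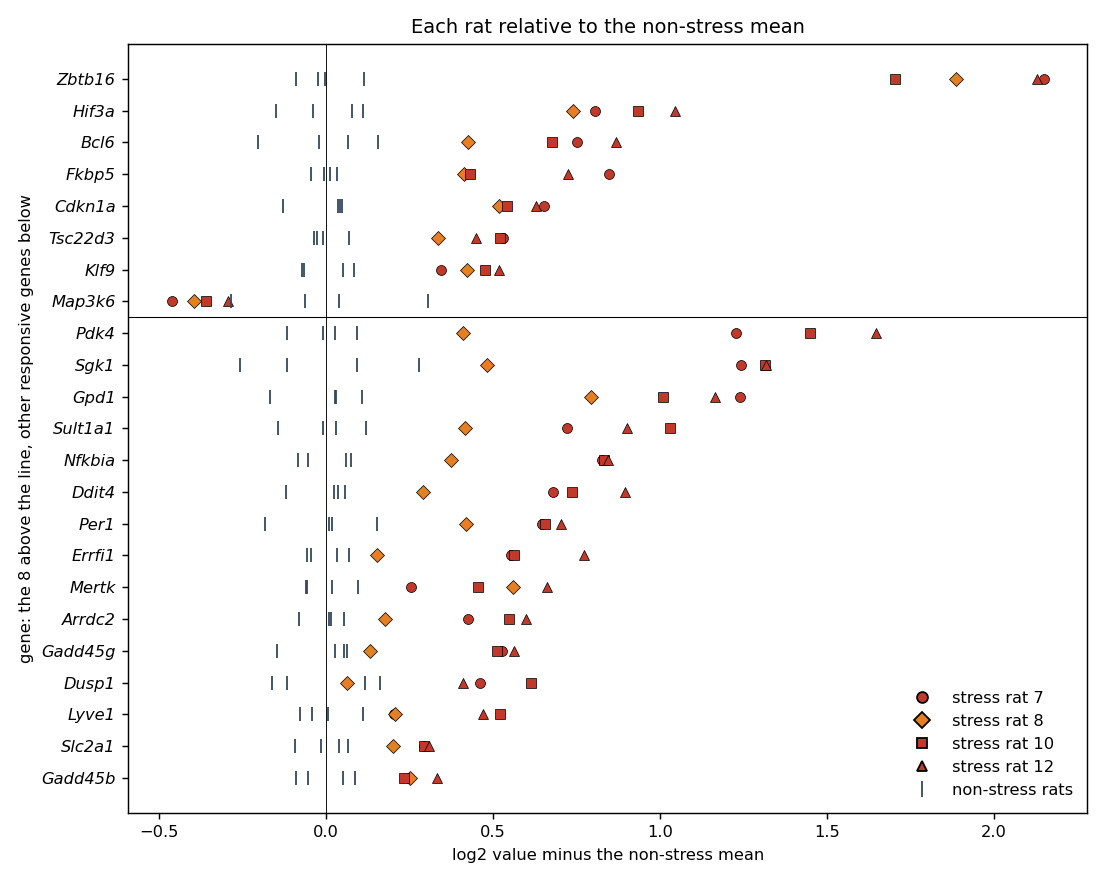
Log2 value of each rat minus the non-stress mean (x axis) for the 8 genes (above the line) and the 15 other responsive genes in the table (below it); filled symbols are stressed rats, with rat 8 as an orange diamond, and ticks are non-stress rats. The diamond is the leftmost stressed rat in most rows, but not in Zbtb16, Klf9, Map3k6, Mertk, Lyve1 or Gadd45b.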

How the data were processed

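Total RNA of 8 habenulae was labelled with biotin and hybridised to Affymetrix whole-transcript arrays, per the labels' protocols. The authors deposited log2 expression values per probe set, a fold change column (the stress mean minus the non-stress mean on the log2 scale), and an unadjusted p-value that equals an unequal-variance p from the 8 values. How the authors corrected background, summarized and normalized is not given in the sources used here, nor is a genome build. The second deposited table held the same values (largest gap 0). Probe sets were named by the platform annotation, and all 283 single symbols matched the RefSeq table by gene ID.

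Differences and moderated standard errors were fitted to all 379 probe sets, without covariates, using R 4.3.3 and limma 3.58.1. The fit was tested on simulated data with known differences, drawn without the table's selection on p-value and fold. That test therefore does not show how far the selection moves the differences or standard errors. No rat number is shared between groups, and no batch is stated. Covariation used exact permutations in Python 3.11.15. The genes and lists were chosen with earlier results of these data known. All 8 genes were named, as were the 2 probe sets most alike to each and the listed genes in the table. Alternatives were quantile normalization, median centring, group medians, the second table, rank correlation, scaled deviations and leaving out each rat. With 4 arrays a group the number of arrays limits the precision.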

Additional observations from a re-analysis of the deposited data

Results flagged for a closer look

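Of 54 groups of 4 rats tested for a rat lying apart from the other 3 (the 8 genes and the other listed glucocorticoid, Krüppel-like, hypoxia and p53 genes in the table, in both groups), 5 were found, and chance gives about 1 in 20. Cdkn1a was at 8.79 in non-stress rat 3, against 8.95 to 8.97 in the other non-stress rats. The other 4 were all stressed rat 8: Sgk1 at 11.37, against 12.13 to 12.20 in the other stressed rats, Nfkbia at 9.64, against 10.10 to 10.11, Gadd45g at 7.49, against 7.87 to 7.92, and Slc2a1 at 12.11, against 12.20 to 12.21. In none of the 8 genes was stressed rat 8 apart by this measure.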

How the results depend on the processing

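No paired analysis was possible because the 2 groups share no rat number. Over 12 alternative settings for each of the 8 genes, 95 of 96 differences stayed within 1 SD between rats of the reported value and 0 changed sign. The exception was Klf9 after quantile normalization (0.58, against 0.44). Only quantile normalization and median centring could take a difference further than that or change its sign. Leaving out 1 of 4 rats or using group medians can do neither where the groups do not overlap. The second table held the same values. The counts of 7 higher genes and of 8 genes without overlap were the same under both scalings. Without each rat they could not change, since leaving out a rat cannot make separate groups overlap. The count over 1.5-fold was 3 to 5 without single rats. The number of pairs past an adjusted exact permutation p of 0.05 was 0, and 1 after median centring (Fkbp5 and Cdkn1a). The cause was not tested. Without a rat there are fewer orders, and 1 pair alone cannot pass. The result of 0 in those settings therefore says little about stability. Dividing deviations by the group SD took r of Zbtb16 and Fkbp5 to 0.129, against 0.796. Zbtb16 kept rank 1 under both scalings. The scalings were run on the chosen probe sets alone. The values carry no detection calls or background signal, so how far dim levels limit a difference is not known.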
